A study of Homo sapiens with 6 samples.

Results

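The plasminogen activation system was examined in AsPC-1 cells, a human pancreatic cancer cell line, as 7 genes picked by name from the 58735 genes of the deposited table: the activators PLAU and PLAT, the receptors and plasminogen-binding proteins PLAUR, S100A10 and PLGRKT, and the serpin inhibitors SERPINE2 and SERPINB2. Total RNA was sequenced from 6 libraries in 2 groups of 3. The Vector group carried an empty lentivirus on a wild-type background. In the OE-MMP28 group, a lentivirus delivered the cDNA of MMP28, a secreted matrix metalloproteinase. By the study's methods, the vectors also carried GFP and a puromycin resistance gene and stable cells were selected with puromycin, so both groups share infection and selection, and all libraries come from one cell line. The labels do not say that the 3 libraries of a group came from separate cultures, so the p-values below measure the spread between these libraries, which may be technical.

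Plasminogen is a circulating zymogen that is cut to plasmin, a broad serine protease that degrades fibrin and matrix proteins. The cut is made by the urokinase-type activator, which PLAU encodes, or by the tissue-type activator, which PLAT encodes, and both are held in check by serpins that trap the active enzyme. Cells concentrate the reaction at their surface, through the urokinase receptor (PLAUR) and through proteins that bind plasminogen by a C-terminal lysine, such as S100A10 in its complex with ANXA2. Pancreatic ductal tumours are known for strong expression of urokinase, its receptor and ANXA2.

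Promoter windows of 6 of the 7 members, all but PLAT, were taken from the RefSeq promoter table (GRCh38.p14), with 8 windows in all. The windows ran from 250 bases before to 50 bases after a gene's start. They were searched on both strands for 5 short motifs: AP-1 (TGANTCA, where N is any base), CRE (TGACGTCA), the GC box (GGGCGG), the CCAAT box (CCAAT) and the TATA box (TATAAA). Of 35116 promoters in the table, 7.71% held the AP-1 motif, 1.85% the CRE motif, 45.0% a GC box, 34.6% a CCAAT box and 11.5% a TATA box. Of the 8 windows, 5 are shown as examples, 5′ to 3′ on the gene's own strand with each match in capitals. They are the SERPINE2 window at chr2:224031429-224031728 (minus strand), the PLGRKT window at chr9:5437876-5438175 (minus), the PLAUR window at chr19:43670120-43670419 (minus), the SERPINB2 window at chr18:63887455-63887754 (plus) and a PLAU window at chr10:73910882-73911181 (plus).
SERPINE2: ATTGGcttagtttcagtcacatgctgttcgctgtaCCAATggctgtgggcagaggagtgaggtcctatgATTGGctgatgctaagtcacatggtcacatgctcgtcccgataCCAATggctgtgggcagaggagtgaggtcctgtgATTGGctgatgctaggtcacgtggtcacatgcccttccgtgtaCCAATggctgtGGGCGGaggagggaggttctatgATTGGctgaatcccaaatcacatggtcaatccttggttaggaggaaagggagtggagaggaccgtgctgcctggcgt
PLGRKT: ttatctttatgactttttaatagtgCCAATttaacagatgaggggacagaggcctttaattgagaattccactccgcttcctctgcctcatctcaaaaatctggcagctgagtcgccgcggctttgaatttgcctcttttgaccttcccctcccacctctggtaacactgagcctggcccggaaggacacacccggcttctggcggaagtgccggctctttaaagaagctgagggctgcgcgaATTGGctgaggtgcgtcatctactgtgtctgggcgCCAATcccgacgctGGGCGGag
PLAUR: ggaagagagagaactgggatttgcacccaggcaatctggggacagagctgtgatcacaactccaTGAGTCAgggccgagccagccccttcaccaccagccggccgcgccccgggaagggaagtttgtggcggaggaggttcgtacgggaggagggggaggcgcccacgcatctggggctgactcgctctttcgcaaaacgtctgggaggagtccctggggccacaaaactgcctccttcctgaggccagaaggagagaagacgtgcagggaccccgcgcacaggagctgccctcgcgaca
SERPINB2: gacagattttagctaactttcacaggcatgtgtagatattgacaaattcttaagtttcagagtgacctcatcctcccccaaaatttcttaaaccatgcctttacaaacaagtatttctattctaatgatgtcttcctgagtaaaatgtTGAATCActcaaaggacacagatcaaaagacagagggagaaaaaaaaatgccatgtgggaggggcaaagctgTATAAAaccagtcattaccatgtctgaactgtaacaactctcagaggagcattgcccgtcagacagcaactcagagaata
PLAU: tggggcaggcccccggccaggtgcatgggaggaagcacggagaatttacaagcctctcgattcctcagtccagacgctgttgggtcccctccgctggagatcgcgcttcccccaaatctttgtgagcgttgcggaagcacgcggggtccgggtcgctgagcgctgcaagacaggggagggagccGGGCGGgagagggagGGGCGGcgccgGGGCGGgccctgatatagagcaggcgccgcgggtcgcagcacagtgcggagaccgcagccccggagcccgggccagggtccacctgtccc

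The SERPINE2 window shown held 7 matches to the CCAAT box, counting ATTGG, its reverse complement, and 1 GC box. Its 3 forward matches were spaced 77 bases apart. This window lies inside the gene, whose 5′ end is at 224039319. The other SERPINE2 window, at 224038591 to 224038890, is nearer that end. The PLGRKT window held 3 CCAAT matches and 1 GC box. The PLAUR and SERPINB2 windows were the only 2 of the 8 with an AP-1 match, TGAGTCA and TGAATCA respectively, and SERPINB2 was the only one with a TATA box. The PLAU window shown held 3 GC boxes and the other PLAU window 1 CCAAT box. The other SERPINE2 window held 2 GC boxes and no CCAAT box, and the S100A10 window 1 GC box. No window held the CRE motif. These matches are descriptions of sequence, and nothing was measured here at the promoters.

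The libraries held 13633249 to 16691458 counts, so that 3 counts stood for 0.180 to 0.220 CPM (counts scaled to a common library size). MMP28 itself, the overexpressed gene, was at 5.17, 9.11 and 8.43 FPKM (read counts scaled by gene length and library size) in the Vector libraries and at 13.1, 13.9 and 15.1 in the OE-MMP28 libraries, without overlap. The 5 epithelial markers (EPCAM, KRT8, KRT18, KRT19, CDH1) were all detected and summed to 2578 to 3518 FPKM in the Vector group and 3516 to 4303 in the OE-MMP28 group. Nearly all of that sum came from the keratins and EPCAM. CDH1 was at 17.3 to 22.0 FPKM in the Vector group and at 10.9 to 14.8 FPKM in the OE-MMP28 group, and EPCAM overlapped between the groups. Of markers of other cell types, COL1A2 (fibroblast), PTPRC and CD163 (leukocyte and macrophage) and CDH5 (endothelial) had at most 3 counts in every library. The whole lists summed to 33.9 to 40.9 and 39.3 to 57.0 FPKM for the 5 fibroblast markers (nearly all of it LUM), 0.886 to 1.09 and 0.569 to 0.817 for the 4 leukocyte and macrophage markers, and 0.0441 to 0.170 and 0.179 to 0.293 for the 3 endothelial markers, in the Vector and OE-MMP28 groups respectively. Mitochondrial genes took 11.9% to 14.8% of counts in the Vector libraries and 8.80% to 11.9% in the OE-MMP28 libraries. With these genes left out before scaling, PLAT and SERPINE2 were still the 2 members called, with log2 fold changes of 1.87 and 0.38. One library stood apart: in Vector replicate 2, 32 of the 4342 genes that averaged 10 FPKM or more were more than 1 log2 unit above both other Vector libraries, against 0 to 5 such genes in each of the other 5 libraries, and S100A10 was among the 32. Results for S100A10 are therefore given with and without it. In bulk RNA, a change in the share of cells that express a gene and a change in RNA per cell cannot be told apart.

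Among 15319 genes tested with edgeR's quasi-likelihood test, 1795 (11.7%) were higher and 1784 (11.6%) lower in the OE-MMP28 group at a Benjamini-Hochberg adjusted p under 0.05. Of the 7 members, 6 had enough counts to be tested. PLAT and SERPINE2 were higher, none was lower, and PLAU, PLAUR, S100A10 and PLGRKT did not pass the threshold. The median log2 fold change of the 6 was 0.43, against 0.01 over all genes tested. The OE-MMP28 libraries lay above the Vector libraries without overlap for 3 members (PLAT, SERPINE2 and PLGRKT), a pattern that 2990 of all genes tested (19.5%) showed.

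**Figure D1:**
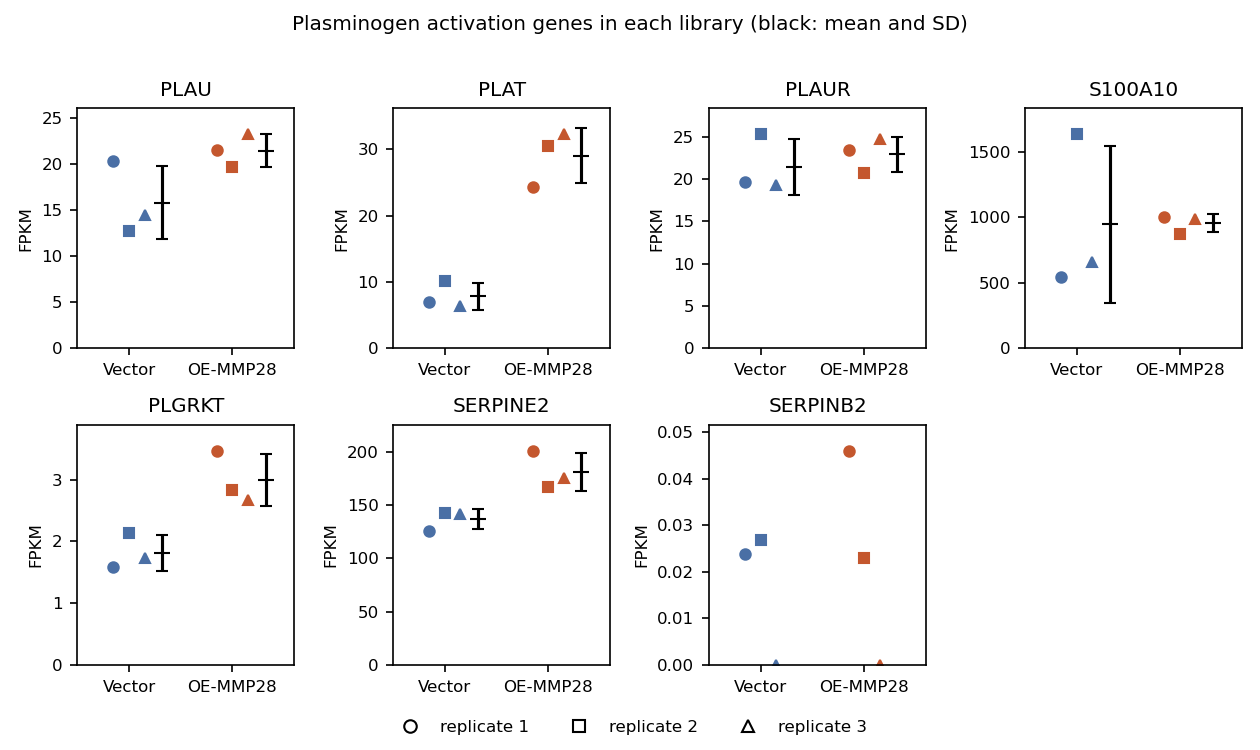
Level of each member in each library (vertical axis, FPKM from 0, scaled per gene), in the Vector group (blue) and the OE-MMP28 group (orange), with the mean and SD of 3 libraries in black (not drawn for SERPINB2). PLAT, PLGRKT and SERPINE2 separate the groups, while 1 Vector library of S100A10 reaches 1636 FPKM.

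PLAT, the tissue-type activator best known for its work in fibrinolysis, showed the largest change of the members. It was at 7.0, 10.2 and 6.37 FPKM in the Vector libraries and at 24.4, 30.5 and 32.3 FPKM in the OE-MMP28 libraries. Every OE-MMP28 library was thus more than 2 times as high as the highest Vector library. The group means were 7.86 ± 2.07 and 29.1 ± 4.14 FPKM (SD, n = 3 each), on 621 to 915 counts and 2557 to 3599 counts per library. The edgeR log2 fold change was 1.90 (SE 0.18, 95% interval 1.52 to 2.28), a 3.74-fold rise (2.86 to 4.87) with an adjusted p of 4.59e-07. Only 142 of the genes tested (0.927%) had a larger log2 fold change. The rise passed the threshold in all 18 alternative settings, with log2 fold changes of 1.77 to 2.25.

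PLAT (ENSG00000104368) lies on chromosome 8 from 42175233 to 42207724 of GRCh38, on the minus strand, with 16 merged exons in GENCODE release 29. The median log2 fold change of the 45 genes tested within 5 Mb on either side was -0.35, with 1 higher, 15 lower and the rest not past the threshold, beside 11.6% lower over all genes tested. Of the 3 nearest genes on each side, 2 were lower and 4 did not pass. The nearest genes on one side, AP3M2 and KAT6A, fell by 0.50 and 0.59 on the log2 scale (adjusted p = 0.0273 and 0.0154). ANK1, the next on that side, had 0.26, and IKBKB, POLB and VDAC3 on the other side had -0.32, -0.22 and 0.04. These neighbours were looked up after the values of PLAT were seen.

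PLAU, the urokinase-type activator, had a higher mean in the OE-MMP28 group but did not pass the test. It was at 20.3, 12.7 and 14.4 FPKM in the Vector libraries and at 21.5, 19.6 and 23.2 FPKM in the OE-MMP28 libraries. Vector replicate 1 reached into the range of the OE-MMP28 libraries, while the other 2 Vector libraries lay below it. The means were 15.8 ± 3.99 and 21.4 ± 1.80 FPKM (SD, n = 3 each), and the log2 fold change was 0.45 (SE 0.18, 95% interval 0.08 to 0.81), with an edgeR adjusted p of 0.0706. In 15 of 18 alternative settings it stayed short of the threshold, with adjusted p up to 0.243 (log2 fold change 0.31) without Vector replicate 2. Without Vector replicate 1 it became 0.67 with an adjusted p of 0.00853. PLAU (ENSG00000122861, chromosome 10, 73909177 to 73917497, plus strand) shares 31.1% of its exon length with C10orf55 on the opposite strand, which had 2 to 9 counts, and the library kit named in the labels does not mark strand. Of 83 genes within 5 Mb, 6 were higher and 36 lower, with a median of -0.45. When that median was taken as the baseline of PLAU, its log2 fold change was 0.89 (adjusted p = 0.00174).

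**Figure D2:**
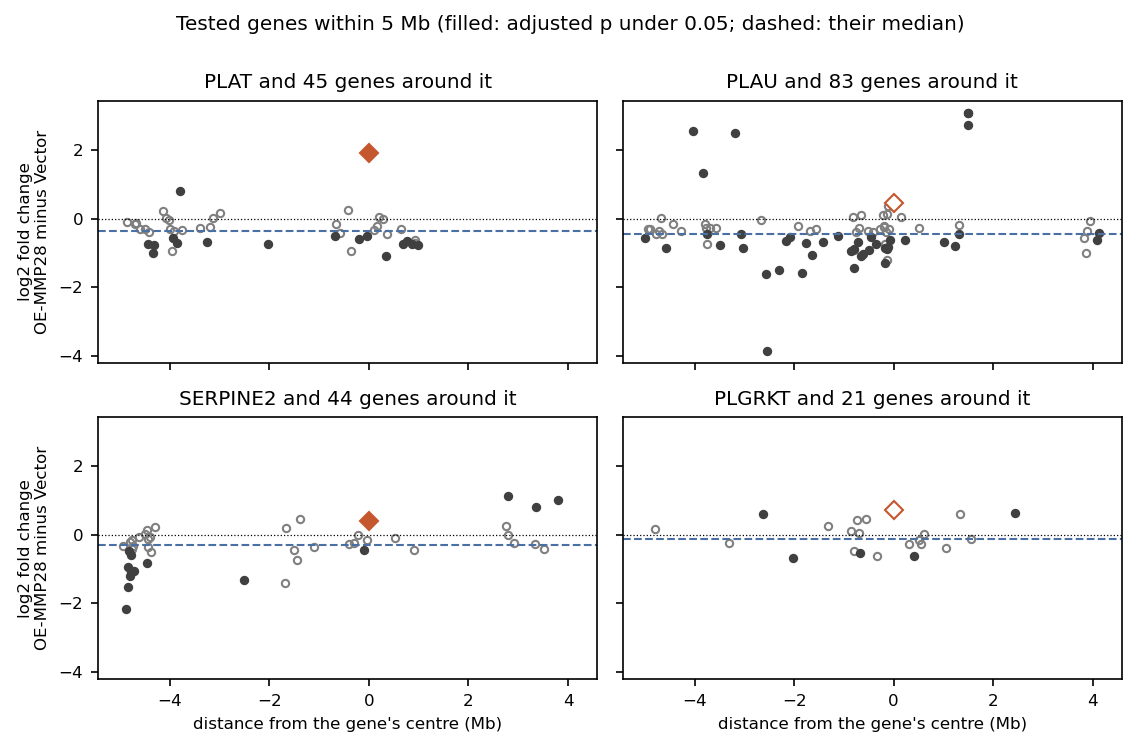
log2 fold change (OE-MMP28 minus Vector) of PLAT, PLAU, SERPINE2 and PLGRKT (diamonds) and of the tested genes around each (circles, filled where the adjusted p was under 0.05), against distance from the gene's centre in Mb. The dashed lines mark the neighbours' medians, -0.35, -0.45, -0.30 and -0.13, and each of these 4 diamonds lies above its line.

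Within a library, PLAT rose relative to PLAU. The ratio of PLAT to PLAU in FPKM was 0.344, 0.803 and 0.441 in the Vector libraries and 1.14, 1.56 and 1.40 in the OE-MMP28 libraries. PLAU transcripts exceeded PLAT transcripts per length in all 3 Vector libraries, and PLAT exceeded PLAU in all 3 OE-MMP28 libraries. Which gene was ahead depends on the gene lengths used for FPKM, 6618 bases for PLAT and 2950 for PLAU. It also depends on how reads in the 31.1% of PLAU exon length shared with C10orf55 were counted, which is not known here. In raw counts, PLAT had 708, 915 and 621 in the Vector libraries and PLAU had 917, 508 and 627. By counts, PLAT was thus already ahead in Vector replicate 2. The ratio was chosen after the values of both genes were seen and carries no test of its own.

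PLAUR, the glycolipid-anchored receptor that holds urokinase at the cell surface, did not pass the test in any setting. It was at 19.7, 25.3 and 19.3 FPKM in the Vector libraries and at 23.4, 20.7 and 24.7 FPKM in the OE-MMP28 libraries. The highest value of all 6 was a Vector library, and the groups overlapped. The log2 fold change was 0.11 (SE 0.15, adjusted p = 0.656 in edgeR), and its 95% interval ran from 0.862-fold to 1.35-fold. PLAUR (ENSG00000011422) lies on chromosome 19 from 43646095 to 43670547, minus strand. Of 216 genes within 5 Mb, 21 were higher and 10 lower, with a median of 0.06. The ratio of PLAU to PLAUR was 1.03, 0.504 and 0.748 in the Vector libraries and 0.919, 0.946 and 0.938 in the OE-MMP28 libraries.

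S100A10, the S100-family protein that pairs with ANXA2 and offers a C-terminal lysine to plasminogen, was the most abundant member per length. It was at 542, 1636 and 662 FPKM in the Vector libraries and at 1000, 877 and 990 FPKM in the OE-MMP28 libraries. The 3 OE-MMP28 libraries lay close together, between a very high Vector replicate 2 and the other 2 Vector libraries. The log2 fold change was 0.02 (SE 0.26, 95% interval -0.52 to 0.57, adjusted p = 0.960 in edgeR). Without Vector replicate 2 it was 0.68 with an adjusted p of 0.00196. That library was set apart by genes that include S100A10 itself, so this p-value is not support of its own. Without Vector replicate 1 or 3 the log2 fold change was -0.25 or -0.18, both short of the threshold. The result for S100A10 thus rests on Vector replicate 2. S100A10 (ENSG00000197747) lies on chromosome 1 from 151982915 to 151994390, minus strand. Of 196 genes within 5 Mb, 24 were higher and 23 lower, with a median of 0.05, which is above the value of S100A10 itself.

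ANXA2, the membrane-binding partner of S100A10 and not itself a member, did not share that pattern. It was at 111, 139 and 135 FPKM in the Vector libraries and at 186, 172 and 197 FPKM in the OE-MMP28 libraries, with a log2 fold change of 0.54 (SE 0.14, adjusted p = 0.0102). The ratio of S100A10 to ANXA2 was 4.88 and 4.92 in Vector replicates 1 and 3 and 5.03 to 5.37 in the OE-MMP28 libraries. In Vector replicate 2 it was 11.8. This ratio was also formed after the values were seen, and no other pair of abundant genes was set beside it.

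PLGRKT, a transmembrane plasminogen receptor known from macrophages and neuroendocrine cells, was the least abundant of the 6 tested members. It was at 1.58, 2.13 and 1.73 FPKM in the Vector libraries and at 3.47, 2.83 and 2.67 FPKM in the OE-MMP28 libraries. The groups did not overlap, but the counts were few, 36 to 43 and 67 to 82 per library. The log2 fold change was 0.73 (SE 0.28, 95% interval 0.15 to 1.31), with an edgeR adjusted p of 0.0615. It passed the threshold in 3 of 18 alternative settings, with adjusted p from 0.0358 to 0.170 over all 18. PLGRKT (ENSG00000107020) lies on chromosome 9 from 5357973 to 5437878, minus strand, and 3 of 21 genes within 5 Mb were lower and 2 higher.

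**Figure D3:**
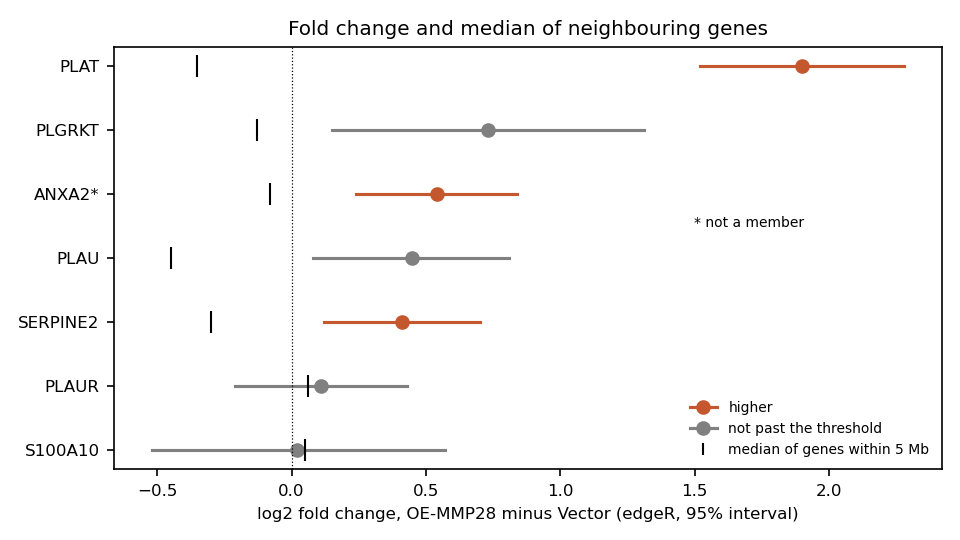
edgeR log2 fold change (OE-MMP28 minus Vector) with its 95% interval for the 6 tested members and for ANXA2 (asterisk), with the median of the genes within 5 Mb as a black tick. PLAT stands farthest to the right at 1.90, and the intervals of PLAUR and S100A10 span 0.

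SERPINE2, protease nexin 1, is a heparin-binding inhibitor of thrombin, urokinase and the tissue-type activator, and it was the most abundant serpin of those described here. It was at 126, 143 and 142 FPKM in the Vector libraries and at 201, 167 and 175 FPKM in the OE-MMP28 libraries. Every OE-MMP28 library was above every Vector library. The means were 137 ± 9.65 and 181 ± 18.0 FPKM (SD, n = 3 each), and the log2 fold change was 0.41 (SE 0.14), a 1.33-fold rise (95% interval 1.09 to 1.63) with an adjusted p of 0.0380 in edgeR. The call was not firm: 10 of 18 alternative settings gave an adjusted p above 0.05, up to 0.138. Leaving out OE-MMP28 replicate 1, 2 or 3 gave adjusted p of 0.138, 0.0749 and 0.0602, and leaving out Vector replicate 1 or 3 gave 0.102 and 0.0965. SERPINE2 (ENSG00000135919) lies on chromosome 2 from 223975112 to 224039319, minus strand. Of 44 genes within 5 Mb, 3 were higher and 11 lower, with a median of -0.30. The ratio of PLAT to SERPINE2 in FPKM was 0.0556, 0.0714 and 0.0448 in the Vector libraries and 0.121, 0.183 and 0.184 in the OE-MMP28 libraries. SERPINE2 transcripts thus exceeded PLAT transcripts per length in every library, by less in the OE-MMP28 group.

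SERPINB2, plasminogen activator inhibitor 2, was close to absent. It had 1, 1 and 0 counts in the Vector libraries and 2, 1 and 0 in the OE-MMP28 libraries. These 2 and 3 counts per group are at or under the floor of 3 counts, so it was not tested and no fold is given. SERPINB2 (ENSG00000197632) lies on chromosome 18 from 63871692 to 63903890, plus strand, and shares 19.9% of its exon length with SERPINB10, which had 0 counts in every library.

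**Figure D4:**
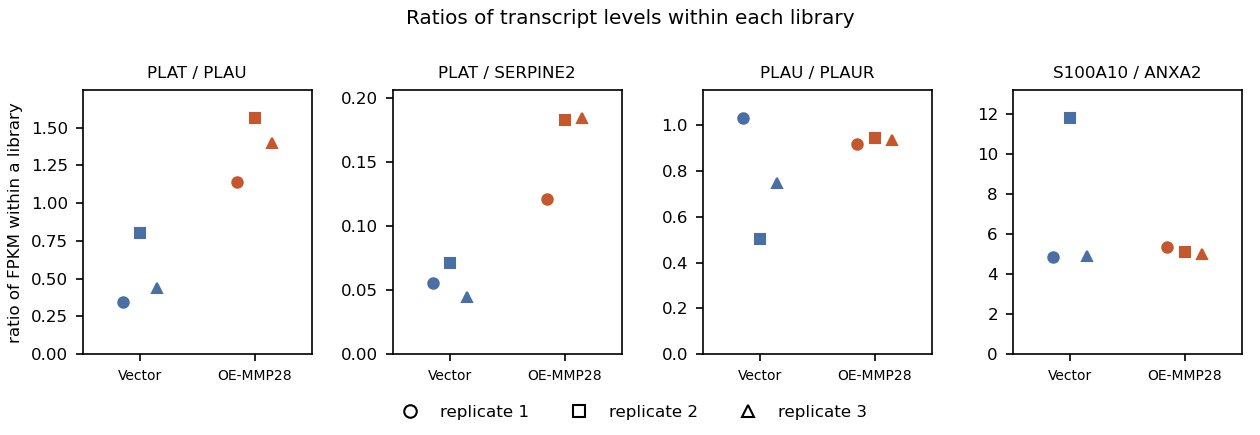
Ratio of 2 genes' FPKM within each library (vertical axes from 0, scaled per ratio), with Vector in blue and OE-MMP28 in orange and the replicate given by the marker. PLAT / PLAU and PLAT / SERPINE2 separate the groups, PLAU / PLAUR does not, and S100A10 / ANXA2 lies between 4.88 and 5.37 in all but Vector replicate 2, at 11.8.

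Ranked by mean FPKM in the Vector group, S100A10 was followed by SERPINE2, PLAUR, PLAU, PLAT, PLGRKT and SERPINB2. The ranges of PLAUR and PLAU overlapped, and those of the other neighbours in this order did not. In the OE-MMP28 group the order was S100A10, SERPINE2, PLAT, PLAUR, PLAU, PLGRKT and SERPINB2. There PLAT, PLAUR and PLAU, at 29.1, 22.9 and 21.4 FPKM on average, followed each other with overlapping ranges between neighbours. The order of these genes also depends on the gene lengths used for FPKM and, for PLAU, on how reads shared with C10orf55 were counted.

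Other genes of the pathway were described by 5 lists with 49 entries, of which 27 had enough counts to be tested. Of these 27, 11 were higher and 3 lower, with a median log2 fold change of 0.32. These counts and those of each list stand beside 11.7% higher and 11.6% lower over all genes tested. The lists were chosen with earlier results of these data known, so these shares are descriptions and not a test. Of 8 genes listed as plasminogen and other inhibitors, 2 were tested and 1 was lower. SERPINF2, the plasma inhibitor of plasmin, fell by 1.15 on the log2 scale (adjusted p = 0.0467) on counts of 31 to 37 in the Vector group and 7 to 23 in the OE-MMP28 group. Without any one of the OE-MMP28 libraries, Vector replicate 2 or Vector replicate 3, its adjusted p was 0.0637 to 0.143. PLG, which encodes plasminogen itself, and SERPING1 had 0 counts in every library.

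Of the 5 other plasminogen-binding surface proteins, all 5 were tested and 4 were higher. ANXA2 was one. RUVBL1, an ATPase of chromatin complexes that also binds plasminogen at the surface, had a log2 fold change of 1.09 (adjusted p = 6.88e-05). The glycolytic enzyme ENO1 had 0.61 (adjusted p = 0.00382), and HMGB1, a chromatin protein, had 0.44 (adjusted p = 0.0358). HMGB1 lost the call in 9 of 18 settings, among them without any one of the OE-MMP28 libraries or Vector replicate 2 or 3 (adjusted p = 0.0525 to 0.129). KRT8, which is also one of the epithelial markers, had 0.42 and did not pass (adjusted p = 0.0816). Of 63 genes within 5 Mb of RUVBL1, 32 were higher and 0 lower, with a median of 0.55. With that median as the baseline, RUVBL1 had 0.54 (adjusted p = 0.0262).

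Among 17 uPAR partners and clearance receptors, 10 were tested, 3 were higher and 1 was lower. SORL1, a sorting receptor that takes up urokinase with its inhibitor, had a log2 fold change of 0.78 (adjusted p = 0.00235). The integrin subunits ITGA3 and ITGB5 had 0.58 (adjusted p = 0.00936) and 0.44 (adjusted p = 0.0278). LRP1, the endocytic receptor that clears complexes of activators and serpins, fell by 1.11 (adjusted p = 0.00263). Without Vector replicate 2, where it was highest, LRP1 fell by 0.71 (adjusted p = 0.00982). FPR2 had 0 counts in every library. ITGA3 lost the call without OE-MMP28 replicate 2 or Vector replicate 3 (adjusted p = 0.0713 and 0.0672). ITGB5 lost it in 6 of 18 settings, among them without OE-MMP28 replicate 2 or 3 or Vector replicate 2 or 3 (adjusted p = 0.0596 to 0.143). With the median of genes within 5 Mb as the baseline, SORL1 and ITGB5 also lost it (adjusted p = 0.305 and 0.717).

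Of 8 proteases that cleave pro-urokinase, 4 were tested and 1 was higher. ST14, the membrane serine protease matriptase, had a log2 fold change of 0.54 (adjusted p = 0.0336), with overlapping groups. It lost the call in 8 of 18 settings, among them without OE-MMP28 replicate 2 or 3 or Vector replicate 1 or 3 (adjusted p = 0.0746 to 0.213). Another was with the median of genes within 5 Mb as the baseline (adjusted p = 0.916). KLK2 and KLK4 had 0 counts in every library.

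Of 11 substrates of plasmin, 6 were tested, 3 were higher and 1 was lower. MMP1, the interstitial collagenase that plasmin can activate, was at 13.4 to 19.4 FPKM in the Vector group and 70.3 to 92.6 FPKM in the OE-MMP28 group, with a log2 fold change of 2.24 (adjusted p = 2.18e-08). MMP13, another collagenase, had at most 2 counts in a Vector library and 19 to 32 counts in the OE-MMP28 libraries and was higher (adjusted p = 7.82e-05). No fold is given for MMP13, because the Vector counts were under the floor of 3. MMP1 and MMP13 both lie on chromosome 11. Of 28 genes within 5 Mb of MMP1, 10 were higher and 0 lower, with a median of 0.49. Of 29 around MMP13, 11 were higher and 0 lower, with the same median. Both genes kept the call in all 18 settings. F2RL1, a receptor that proteases switch on by cutting it, had 0.61 (adjusted p = 0.00376). THBS1, a secreted matrix glycoprotein, fell by 0.74 (adjusted p = 0.00120).

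**Figure D5:**
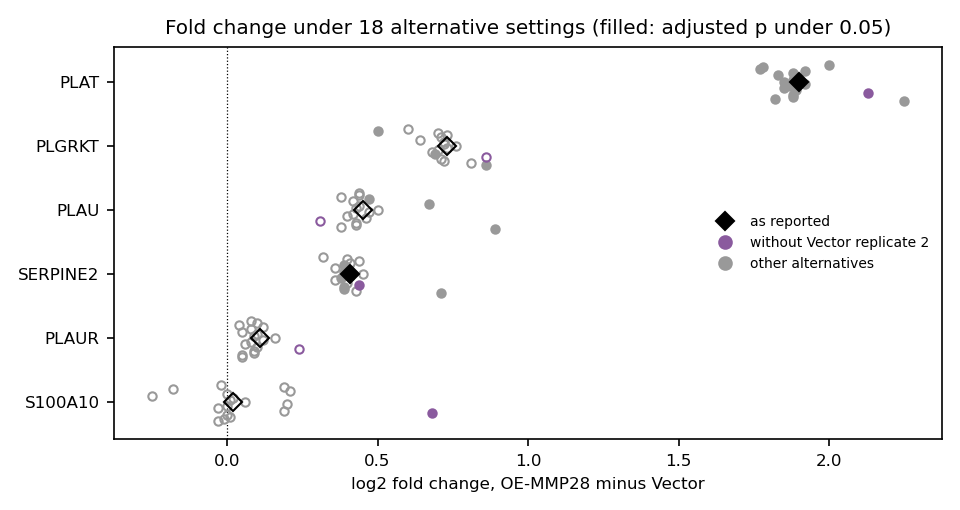
log2 fold change (OE-MMP28 minus Vector) of the 6 tested members as reported (diamonds), under the 18 alternative settings (circles) and without Vector replicate 2 (purple), filled where the adjusted p was under 0.05. PLAT stays between 1.77 and 2.25, and S100A10 moves from 0.02 to 0.68 without that library.

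The genes whose levels went most closely with those of the 2 higher members were found by Pearson's r of log2 CPM over the 6 libraries, among protein-coding genes. For PLAT they were GSTZ1 (r = 0.9987), MPRIP (0.9983) and DAGLA (0.9975). For SERPINE2 they were CLNS1A (0.9945), SMURF2 (0.9931) and CEP63 (0.9919). The 6 libraries share the difference between the groups, so these values describe likeness in this set only.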

How the data were processed

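Total RNA of 6 AsPC-1 libraries (3 Vector, 3 OE-MMP28) was sequenced by the submitters, whose processing notes name HISAT2 2.0.5 and featureCounts 1.5.0-p3. Settings for multi-mapped reads and strand are not given in the sources used here. The authors deposited one table with raw counts per gene and FPKM per gene and library. The FPKM values matched counts divided by gene length and by a library total that differed from the summed counts by -2.01% to 2.02%. The table also holds the authors' own log2 fold changes and p-values, which were not used. Coordinates are those of GRCh38 and matched GENCODE release 29 for all 58735 genes. Groups came from the sample titles. Counts were tested with edgeR 4.0.16 in R 4.3.3 (filterByExpr, minimum count 10, minimum total 15, TMM scaling, quasi-likelihood F test, group as the only term, Benjamini-Hochberg adjustment over 15319 genes). The test was chosen as the count test that fits the unit, where the study used limma. It was also run on simulated counts drawn with its own fitted dispersions, so that run cannot rank it against limma. Group means and SDs are of FPKM, and genes were compared in level by FPKM. PLAT and PLAU were also compared by raw counts. Alternatives were limma 3.58.1 on voom counts and on log2(FPKM + 1) or log2(FPKM + 0.1), DESeq2 1.42.0, other scalings and filters, protein-coding genes only, mitochondrial genes left out, the replicate number as a block, a baseline set by the median of genes within 5 Mb, and each library left out in turn. The named genes were the 7 members, MMP28, ANXA2, pathway genes past the threshold or at 0 counts throughout, the 3 protein-coding genes most like each member past the threshold, and genes overlapping a member, and 1 entry of the pathway lists is not reported here. The members, lists and named genes were chosen with earlier results of these data known. Total counts per library limit precision as given above, and floors cover counting error only.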

Additional observations from a re-analysis of the deposited data

How the results depend on the processing

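Under 18 alternatives, 648 values were recomputed. Of these, 562 kept their direction and their side of the threshold or moved little, 40 lost the threshold, 7 passed it newly, 32 moved and 7 changed sign. With the baseline set by the median of genes within 5 Mb, 4 members were higher (PLAU, PLAT, PLGRKT and SERPINE2), 1136 of all genes were higher, and 7 pathway genes were higher. In that setting PLAU had 0.89 (adjusted p = 0.00174), PLGRKT 0.86 (0.0409), S100A10 -0.03 and ST14 -0.04. Without the filter on low counts and with upper-quartile scaling 1 member was higher, with SERPINE2 at 0.40 and 0.36 and S100A10 at -0.03 in the latter. With limma on log2(FPKM + 1) and on log2(FPKM + 0.1), PLGRKT had 0.50 and 0.69 (adjusted p = 0.0358 and 0.0371) and SERPINE2 0.40 in both. Leaving out each library in turn gave 1 to 3 members higher, 985 to 1916 genes higher and 1044 to 1949 lower, and 7 to 11 pathway genes higher. The lowest counts of all genes came without OE-MMP28 replicate 2. In the same runs PLAU ranged from 0.31 to 0.67, S100A10 from -0.25 to 0.68 and SERPINE2 from 0.32 to 0.45. No member was lower in any setting, and PLAT kept its call in all 18.

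Libraries with the same number did not deviate together (r = 0.0168, 0.00798 and -0.0876 for numbers 1, 2 and 3). No library correlated best with its own number. With the replicate number as a block, PLAU was 0.47 (adjusted p = 0.0405) and SERPINE2 0.41 (adjusted p = 0.0589), and 1844 of all genes were higher. The cause of these shifts was not tested. With 3 libraries a group, modest changes in genes of few counts, such as PLGRKT, are not resolved.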

Other observations

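The genes that stood out in Vector replicate 2 along with S100A10 were looked up after its values were seen. The next 3 by level in that library were RPL4, at 521 FPKM against 252 in both other Vector libraries, IER3, at 332 against 153 and 165, and TRIR, at 245 against 73.5 and 66.3. The gene farthest above the other Vector libraries was RPL21P75, at 125 FPKM against 12.2 and 6.88. AL928654.2 followed at 57.7 against 5.14 and 6.71, and EIF3CL at 56.9 against 7.89 and 6.06. On the log2 scale, Vector replicate 2 differed from the mean of the other Vector libraries by 1.45 for S100A10, 0.61 for PLAT and -0.43 for PLAU. No label sets this library apart from the other 2.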
